A study of Mus musculus with 6 samples.

Results

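To describe how much RNA of neutrophils and other blood myeloid cells the sorted microglia carried, 34 genes of these cells were read on each array, out of 23462 genes named there. The genes were taken from a list of symbols, and each was represented by the probe with the highest mean signal among those whose transcript accession mapped to it. The list was drawn up with the values of these arrays in view, so the array levels and group differences below are a description of these 6 arrays and support nothing beyond them. Microglia came from mice labelled male and aged 10 weeks, on a C57BL/6 background and without stroke. PGC-1αf/f mice, the littermate controls, carried a floxed PGC-1α allele together with an eGFP gene, an allele built to raise PGC-1α where Cre acts. The mPGC-1α mice carried in addition a tamoxifen-inducible Cre recombinase inserted into Cx3cr1, a gene that blood monocytes also use, and were made to overexpress PGC-1α in microglia. Per the methods, tamoxifen preceded the experiments, and the passages that name the treated animals name both genotypes, although the array methods do not repeat this. Cells were enriched from brain through the surface receptor P2RY12 with antibody and magnetic beads after a Percoll gradient. There were 3 arrays of each genotype. The sources used here do not state whether an array held the RNA of a single mouse or of a pool, so the errors below measure only the spread between these samples.

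Neutrophils are short-lived white blood cells that are packed with granules made in sequence as the cell matures in bone marrow. Primary granules are filled first, at the promyelocyte stage, with myeloperoxidase and serine proteases. Secondary and tertiary granules follow with lactoferrin, antimicrobial peptides and matrix metalloproteinases, and the mature cell then gains chemokine and formyl peptide receptors. Resting brain parenchyma holds few such cells, while blood vessels, meninges and skull marrow do, and the isolated microglia are a bulk sample in which fewer blood cells and less RNA per blood cell cannot be told apart.

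The promoters of 6 granule genes are shown because their transcripts were low together on the same control array, as described below. Each run holds the 250 bases before the annotated start in RefSeq, on the build GRCm38.p6, written 5′ to 3′ along the strand of the gene. Elane (chr10:79886062-79886311, plus strand) and Prtn3 (chr10:79879417-79879666, plus strand) lie beside each other, Mpo lies at chr11:87793534-87793783 on the plus strand and Ctsg at chr14:56102575-56102824 on the minus strand. Capitals in these 4 primary granule promoters mark AGGAAGT, a core letter pattern of the factor PU.1 and related ETS proteins.
Elane: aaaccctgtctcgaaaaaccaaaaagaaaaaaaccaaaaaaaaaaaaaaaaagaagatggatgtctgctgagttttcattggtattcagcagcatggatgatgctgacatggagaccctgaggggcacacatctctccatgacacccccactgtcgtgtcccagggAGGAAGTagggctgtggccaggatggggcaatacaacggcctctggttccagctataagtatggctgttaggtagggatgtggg
Prtn3: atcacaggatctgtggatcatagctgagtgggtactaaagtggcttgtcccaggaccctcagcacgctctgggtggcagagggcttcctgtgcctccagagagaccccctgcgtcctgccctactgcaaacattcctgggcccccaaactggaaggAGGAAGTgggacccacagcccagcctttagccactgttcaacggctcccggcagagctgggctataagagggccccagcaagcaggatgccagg
Mpo: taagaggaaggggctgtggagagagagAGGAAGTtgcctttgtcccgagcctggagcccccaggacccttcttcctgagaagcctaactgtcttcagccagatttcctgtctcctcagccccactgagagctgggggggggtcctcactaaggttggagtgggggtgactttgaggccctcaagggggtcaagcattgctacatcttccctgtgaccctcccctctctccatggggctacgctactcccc
Ctsg: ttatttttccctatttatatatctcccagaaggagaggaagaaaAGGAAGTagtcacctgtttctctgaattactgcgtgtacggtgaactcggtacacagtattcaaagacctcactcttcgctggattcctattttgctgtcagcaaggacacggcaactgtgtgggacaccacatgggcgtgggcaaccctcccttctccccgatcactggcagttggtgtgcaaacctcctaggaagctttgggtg
The pattern starts 84 bases before the start of Elane, 94 before that of Prtn3, 223 before that of Mpo and 206 before that of Ctsg. For the secondary granule genes Ngp (chr9:110419558-110419807) and Ltf (chr9:111019042-111019291), both on the plus strand, capitals mark TTGCNNAA, a pattern of C/EBP proteins in which N is any base. A match on the other strand appears here as the reverse complement, as in Ltf and in the second stretch of Ngp.
Ngp: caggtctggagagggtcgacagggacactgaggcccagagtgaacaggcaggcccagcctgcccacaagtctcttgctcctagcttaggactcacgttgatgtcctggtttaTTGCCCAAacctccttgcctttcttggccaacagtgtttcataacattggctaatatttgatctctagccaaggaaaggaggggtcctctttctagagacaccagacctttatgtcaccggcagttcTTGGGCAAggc
Ltf: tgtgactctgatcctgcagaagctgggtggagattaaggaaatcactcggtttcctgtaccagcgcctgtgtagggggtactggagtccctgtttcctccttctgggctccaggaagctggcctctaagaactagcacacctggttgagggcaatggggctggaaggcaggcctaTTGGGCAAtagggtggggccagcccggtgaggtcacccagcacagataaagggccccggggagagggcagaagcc
Searched on both strands, AGGAAGT was present in 7.69% of 32851 promoters of this length and in 11 of the 30 genes of the list that had a promoter in the RefSeq table. These included 4 of 4 primary granule genes and 1 of 7 secondary granule genes. TTGCNNAA was present in 9.56% of all promoters and in 9 of the 30 genes, with 0 of 4 primary and 4 of 7 secondary granule genes. GAGGAA, which can overlap AGGAAGT, was found in 23.3% of all promoters and in 20 of the 30. These are matches of letters in a window, and binding was not measured. Mmp9, Wfdc21, Hp and Cebpe had no entry.

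All values are log2 signal minus the 75th percentile of the array, so levels can be compared between arrays for the same gene but not between genes. The percentile ranged from 1012 to 2138 intensity units, 27025 to 30272 of 59305 spots were well above background, and 0 spots were saturated. PGC-1αf/f replicate 3 had the highest percentile, the most spots above background and the fewest outlier spots (101, against 842 to 1382). It lay alone in slide column 4, as mPGC-1α replicate 3 did in column 3. The PGC-1αf/f arrays occupied slide row 1 and the mPGC-1α arrays row 2, so row and genotype cannot be told apart. On mPGC-1α replicate 3, labelled male, the signal of 4 Y-linked genes did not clear background (-5.87 to -5.99), whereas it did on the other arrays wherever a value remained. With outlier spots kept, Ppargc1a, which encodes PGC-1α, gave 0.19, -0.44 and -1.21 in PGC-1αf/f and 0.57, 0.28 and 0.08 in mPGC-1α microglia, a difference of 0.80 on the log2 scale (SE 0.35, limma adjusted p 0.30).

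Neutrophil transcripts were well above background in the sorted microglia of both genotypes, and PGC-1αf/f replicate 3 stood far below the other 5 arrays. Of the 34 genes, 24 were above background on all 6 arrays. A further 9 passed the filter for testing through the mPGC-1α arrays only, so their presence among the tested genes is tied to that direction, and Mmp25 was not above background on any array. Ly6g lost its value on 3 arrays to outlier flags, which left 33 genes with a value on every array. The median over these 33 genes was 1.99, 2.51 and -2.15 in PGC-1αf/f and 2.36, 2.85 and 2.96 in mPGC-1α microglia. Leaving aside the untested Mmp25, PGC-1αf/f replicate 3 was the lowest of the 6 arrays for 31 of 32 genes, where the same held for 33.8% of all genes tested. It lay at least 1 log2 unit below every other array for 30 of the 32, against 5.22% of all genes tested. Its distance to the median of the other 5 arrays ran from -0.03 to -5.79 over the 23 genes above background there, with a median of -3.87, and only a bound can be given for the other 10. Over those 5 arrays the genes varied far less, with ranges from 0.23 to 2.28 and a median range of 1.09. Among these 5, PGC-1αf/f replicate 1 was the lowest for 28 of the 32 tested genes, against 20.7% of all genes tested.

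**Figure D1:**
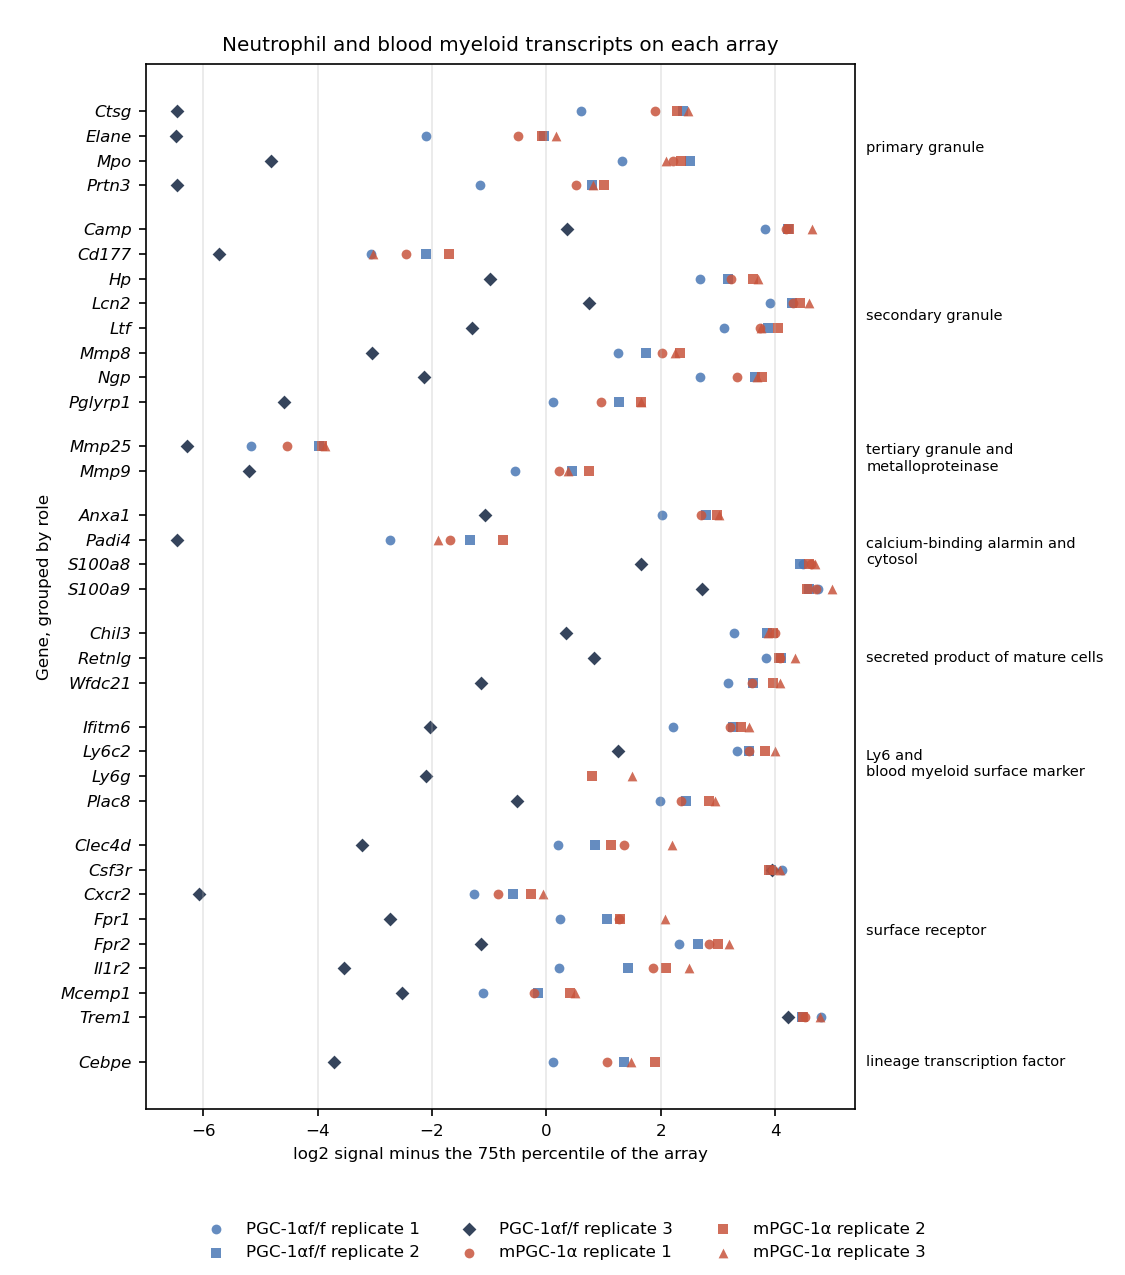
Each row is a gene of the list, grouped by role, and each point is its signal on an array (log2, after the 75th percentile shift) (blue, PGC-1αf/f; red, mPGC-1α; dark diamonds, PGC-1αf/f replicate 3). The dark diamond is the leftmost point in every row except Csf3r, by little in Trem1, and the other 5 arrays span 0.23 to 2.28 log2 units per gene; Ly6g is drawn on the 3 arrays where it has a value.

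The mean of the mPGC-1α arrays was higher than that of the PGC-1αf/f arrays for 31 of the 32 tested genes with values on every array (54.5% of all genes tested). The median difference over the 33 genes, Mmp25 included, was 1.94 on the log2 scale, and 0.03 over all genes tested. It was at least 1 log2 unit for 29 of the 32, against 4.06% of all genes tested, and at least 2 for 15 (0.683%), of which 8 were not above background on PGC-1αf/f replicate 3. By limma, 0 of the 33 tested genes passed an adjusted p of 0.05, as did 0.0792% of all probes tested, and the adjusted p ran from 0.269 to 0.959 for the genes with a value on every array. The deposited table without normalization between arrays placed 24 past that threshold (1.81% of probes), in a fit that gave 32 of the 33 genes the same standard error of 0.43. Array weights placed only Ly6g past it, where 13.8% of all probes passed, and lowered the median difference to 0.47. At an unadjusted p under 0.05, Il1r2, Mcemp1 and Ly6g were higher, where 7.53% of all probes were. The 3 mPGC-1α arrays lay above all 3 PGC-1αf/f arrays for 9 of the 32 genes (12.4% of all genes tested and 7.99% of all genes with values on every array), namely S100a8, Lcn2, Mmp8, Chil3, Il1r2, Fpr1, Fpr2, Hp and Clec4d. Leaving out PGC-1αf/f replicate 2 gave 29 of the 32 (17.2% of all genes tested) and leaving out mPGC-1α replicate 1 gave 21 (17.6%). Quantile normalization gave 5 (11.1%) and the deposited table gave 3 (9.18%). At an unadjusted p under 0.05, 28 genes were higher without PGC-1αf/f replicate 2, where 7.41% of all probes were.

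Without PGC-1αf/f replicate 3 the median difference was 0.50, and 0.02 over all genes tested. The mean was still higher in mPGC-1α microglia for 30 of the 32 genes (54.2% of all genes tested), but by at least 1 log2 unit only for Il1r2 and Clec4d (1.21%). Without it, the genotypes did not overlap for 9 of the 32 genes, against 15.7% of all genes tested. The median standard error went from 1.01 to 0.27. Again 0 genes passed an adjusted p of 0.05 (0.1% of all probes; adjusted p 0.212 to 0.952). At an unadjusted p under 0.05, 7 were higher, where 6.08% of probes were: Mmp8, Il1r2, Fpr1, Fpr2, Hp, Mcemp1 and Clec4d. Without mPGC-1α replicate 3, the array whose Y-linked genes went against its label, the median difference of all 6 arrays moved from 1.94 to 1.79. Within slide column 1, which held replicate 1 of each genotype, the median difference was 0.65, and within column 2 it was 0.22.

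**Figure D2:**
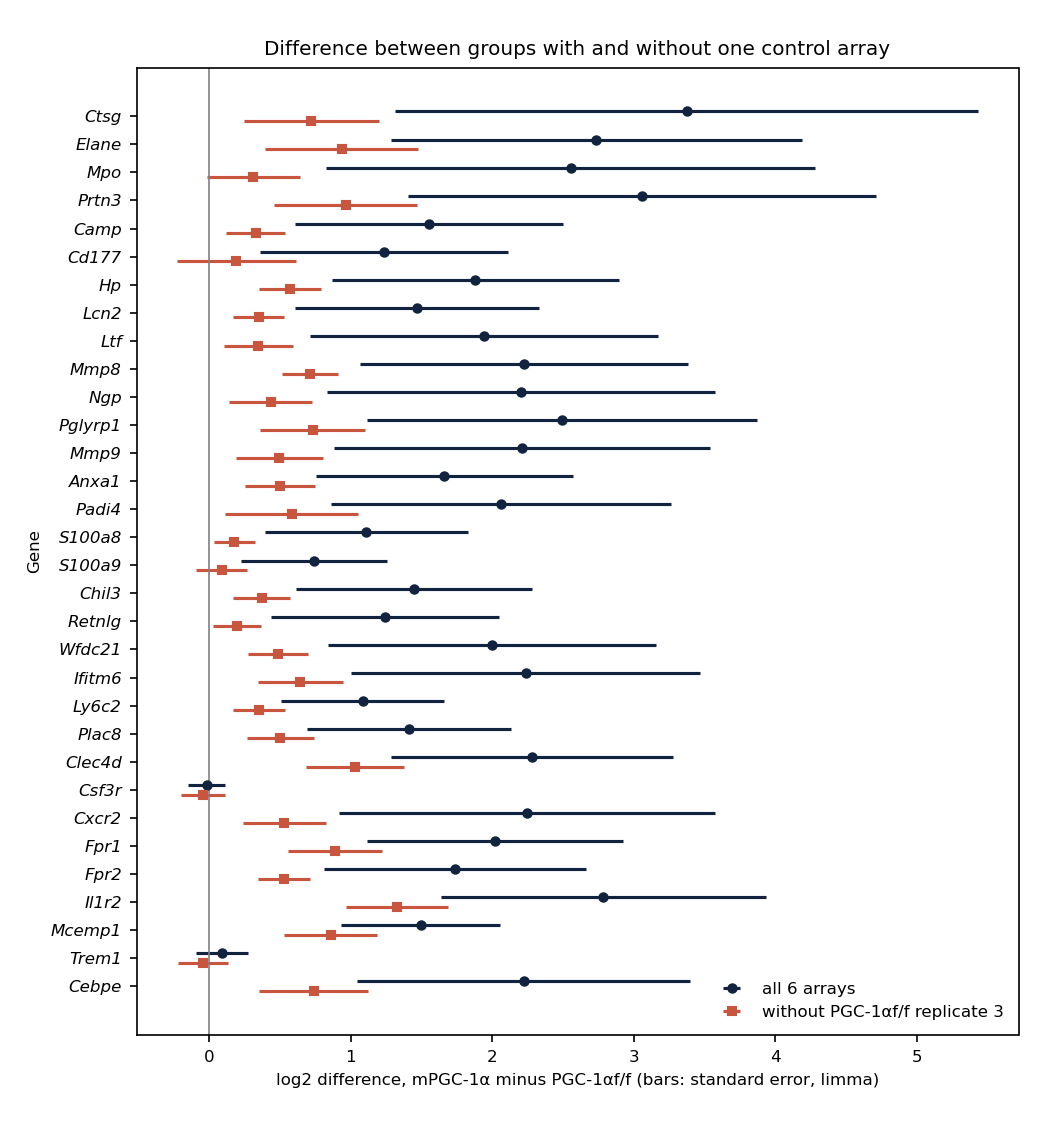
Points give the log2 difference of mPGC-1α minus PGC-1αf/f per gene and bars its standard error from limma, with all 6 arrays (dark circles) and without PGC-1αf/f replicate 3 (red squares). With all arrays most genes lie between 1 and 3 with wide bars, and without that array most lie between 0 and 1 with short bars. Some genes, such as Ctsg, Prtn3, Mpo and Elane, were not above background on PGC-1αf/f replicate 3. Their dark circles and bars rest on readings below background there.

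Primary granule genes had the largest distance of any role group between PGC-1αf/f replicates 1 and 2, as replicate 1 lay below replicate 2 by a median of -1.87, and all 4 were lowest on PGC-1αf/f replicate 3. Ctsg, which encodes cathepsin G, a serine protease, gave 0.60, 2.40 and -6.47 in PGC-1αf/f and 1.90, 2.29 and 2.47 in mPGC-1α microglia. For Mpo, myeloperoxidase, the values were 1.32, 2.51 and -4.82 in PGC-1αf/f and 2.22, 2.36 and 2.09 in mPGC-1α microglia. On these arrays PGC-1αf/f replicate 2 lay at or above most mPGC-1α arrays, and the groups overlapped. Elane, neutrophil elastase, was at -2.10, -0.04 and -6.47 in PGC-1αf/f and -0.50, -0.07 and 0.17 in mPGC-1α microglia. Prtn3, proteinase 3, was at -1.16, 0.79 and -6.47 in PGC-1αf/f and 0.51, 1.01 and 0.82 in mPGC-1α microglia. None of the 4 was above background on PGC-1αf/f replicate 3, so each value there is a reading below background and not a measured level. Against the lowest signal still above background on that array (-4.17), the median of the other 5 arrays was at least 87.8-fold higher for Ctsg, 83.9-fold for Mpo, 31.1-fold for Prtn3 and 17.1-fold for Elane. Without PGC-1αf/f replicate 3, the difference between genotypes was 0.72 for Ctsg (SE 0.48, limma adjusted p 0.595) and 0.31 for Mpo (SE 0.33, limma adjusted p 0.761). Within slide column 2 the mPGC-1α array lay below the PGC-1αf/f array for Ctsg, Mpo and Elane, by -0.11, -0.15 and -0.03.

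All 8 secondary granule genes had a higher mean in mPGC-1α microglia, with a median difference of 1.91 that became 0.39 without PGC-1αf/f replicate 3. Ltf encodes lactoferrin, an iron-binding protein, and gave 3.11, 3.87 and -1.29 in PGC-1αf/f and 3.73, 4.05 and 3.75 in mPGC-1α microglia. Ngp, neutrophilic granule protein, was at 2.68, 3.65 and -2.15 in PGC-1αf/f and 3.34, 3.78 and 3.68 in mPGC-1α microglia. Camp, the precursor of the antimicrobial peptide cathelicidin, was at 3.83, 4.24 and 0.36 in PGC-1αf/f and 4.19, 4.25 and 4.64 in mPGC-1α microglia. In each of these genes, PGC-1αf/f replicate 2 fell inside the mPGC-1α range. PGC-1αf/f replicate 3 lay 55.5-fold below the median of the other arrays for Ngp, 32.9-fold for Ltf and 14.7-fold for Camp.

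Lcn2, lipocalin 2, which withholds iron from bacteria by binding their siderophores, gave 3.91, 4.29 and 0.75 in PGC-1αf/f and 4.32, 4.44 and 4.60 in mPGC-1α microglia. Mmp8, neutrophil collagenase, gave 1.25, 1.74 and -3.05 in PGC-1αf/f and 2.03, 2.34 and 2.25 in mPGC-1α microglia. Hp, haptoglobin, which binds free haemoglobin, gave 2.69, 3.19 and -0.99 in PGC-1αf/f and 3.23, 3.61 and 3.70 in mPGC-1α microglia. The genotypes did not overlap for these genes, but the lowest mPGC-1α array lay only a little above PGC-1αf/f replicate 2 for Lcn2 and Hp. The difference in Mmp8 was 2.23 (SE 1.16, limma adjusted p 0.369), and 0.71 without PGC-1αf/f replicate 3 (SE 0.20, adjusted p 0.222). For Hp it was 1.88 (SE 1.01, limma adjusted p 0.378) and then 0.57 (SE 0.22, adjusted p 0.349). Pglyrp1, a peptidoglycan-binding antibacterial protein, was not above background on PGC-1αf/f replicate 3, at least 43.5-fold below the median of the other arrays. Cd177, a surface protein of neutrophils stored in these granules, was dim throughout and above background on only 1 of 3 PGC-1αf/f arrays. The gelatinase gene Mmp9, of tertiary granules, was at least 23.4-fold below the median of the other arrays on PGC-1αf/f replicate 3, and ranged from -0.55 to 0.74 on those arrays.

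The alarmin genes S100a8 and S100a9 encode the subunits of calprotectin, an abundant cytosolic protein of neutrophils and monocytes. S100a8 gave 4.49, 4.44 and 1.66 in PGC-1αf/f and 4.63, 4.60 and 4.70 in mPGC-1α microglia. S100a9 gave 4.75, 4.59 and 2.72 in PGC-1αf/f and 4.71, 4.57 and 4.99 in mPGC-1α microglia. Without PGC-1αf/f replicate 3 the 5 remaining arrays thus lay within narrow limits for both genes, and the genotype difference went from 1.11 to 0.18 for S100a8 (SE 0.14, limma adjusted p 0.668) and from 0.74 to 0.09 for S100a9 (SE 0.18, limma adjusted p 0.893). Anxa1, annexin A1, a lipid-binding protein that restrains neutrophil recruitment, gave 2.03, 2.80 and -1.08 in PGC-1αf/f and 2.71, 2.99 and 3.03 in mPGC-1α microglia. Its second probe behaved alike, with a difference of 2.10 beside 1.66. Padi4, the enzyme that citrullinates histones in neutrophils, was above background on all arrays except PGC-1αf/f replicate 3, at least 5.56-fold below the median of the others, while a dim second probe was not above background on any array.

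Genes for secreted products of mature cells were lowest on PGC-1αf/f replicate 3 and next lowest on replicate 1. Retnlg, resistin-like gamma, gave 3.84, 4.10 and 0.84 in PGC-1αf/f and 4.09, 4.06 and 4.35 in mPGC-1α microglia. Wfdc21, a whey acidic protein domain gene, gave 3.18, 3.61 and -1.14 in PGC-1αf/f and 3.61, 3.97 and 4.08 in mPGC-1α microglia. Chil3, the chitinase-like protein Ym1, gave 3.29, 3.86 and 0.34 in PGC-1αf/f and 3.99, 3.97 and 3.87 in mPGC-1α microglia. For Chil3 the genotypes did not overlap, with PGC-1αf/f replicate 2 just under the lowest mPGC-1α array, and the difference was 1.45, or 0.37 without PGC-1αf/f replicate 3 (SE 0.20, limma adjusted p 0.499).

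Surface markers of neutrophils and monocytes were also low on PGC-1αf/f replicate 3. Ly6c2, which marks inflammatory monocytes, gave 3.33, 3.55 and 1.25 in PGC-1αf/f and 3.55, 3.83 and 4.01 in mPGC-1α microglia. Plac8, a small cysteine-rich protein of myeloid cells, gave 1.99, 2.45 and -0.51 in PGC-1αf/f and 2.36, 2.85 and 2.96 in mPGC-1α microglia. Ifitm6, an interferon-induced transmembrane family member, gave 2.21, 3.27 and -2.04 in PGC-1αf/f and 3.21, 3.40 and 3.54 in mPGC-1α microglia. In each, PGC-1αf/f replicate 2 was at or above the lowest mPGC-1α array. Whether probes for Ly6c2 or Chil3 also bind transcripts of close relatives of these genes was not tested. Ly6g, the antigen that defines mouse neutrophils, kept a value on only PGC-1αf/f replicate 3 (-2.10) and on mPGC-1α replicates 2 and 3 (0.80 and 1.51), which gave a fitted difference of 3.26 (SE 0.38, limma adjusted p 0.117) resting on a single control array. With the outlier spots kept, Ly6g was at 0.00, 0.94 and -2.10 in PGC-1αf/f and 0.34, 0.80 and 1.51 in mPGC-1α microglia, a difference of 1.27 (SE 0.74, limma adjusted p 0.403) with overlapping groups.

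Among surface receptors, the genes of the list split into those that followed the pattern and 2 that did not. Il1r2, the decoy receptor for interleukin-1, gave 0.22, 1.43 and -3.54 in PGC-1αf/f and 1.87, 2.09 and 2.50 in mPGC-1α microglia. This was the largest difference of the list once PGC-1αf/f replicate 3 was left out, at 1.33 (SE 0.36, unadjusted limma p 0.00739, adjusted p 0.212), compared with 2.78 on all arrays (SE 1.15, adjusted p 0.294). A second Il1r2 probe was also lowest on PGC-1αf/f replicate 3, where it was not above background. Clec4d, a C-type lectin, gave 0.21, 0.86 and -3.22 in PGC-1αf/f and 1.36, 1.13 and 2.21 in mPGC-1α microglia. Fpr1, a receptor for bacterial formyl peptides, gave 0.24, 1.07 and -2.74 in PGC-1αf/f and 1.27, 1.28 and 2.07 in mPGC-1α microglia. Its relative Fpr2 gave 2.31, 2.65 and -1.14 in PGC-1αf/f and 2.84, 3.00 and 3.20 in mPGC-1α microglia. The genotypes did not overlap for these 4 receptors, and their differences without PGC-1αf/f replicate 3 were 1.03 for Clec4d (SE 0.35, limma adjusted p 0.296), 0.89 for Fpr1 (SE 0.33, adjusted p 0.335) and 0.53 for Fpr2 (SE 0.18, adjusted p 0.306).

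Mcemp1, a transmembrane protein of mast cells and myeloid cells, gave -1.10, -0.15 and -2.53 in PGC-1αf/f and -0.22, 0.42 and 0.50 in mPGC-1α microglia, so that PGC-1αf/f replicate 2 lay inside the mPGC-1α range. Cxcr2, the chemokine receptor that releases neutrophils from marrow and guides them, was not above background on PGC-1αf/f replicate 3, at -6.07, against -1.26 to -0.06 on the others. Csf3r, the receptor for granulocyte colony-stimulating factor, gave 4.12, 3.94 and 3.94 in PGC-1αf/f and 3.97, 3.89 and 4.10 in mPGC-1α microglia. It was the only gene with a value on every array for which PGC-1αf/f replicate 3 was not the lowest, and the genotype difference was -0.02 (SE 0.13, limma adjusted p 0.959), which turned to 0.04 without PGC-1αf/f replicate 1. The bright probe of Trem1, an activating receptor of myeloid cells, gave 4.80, 4.47 and 4.23 in PGC-1αf/f and 4.52, 4.49 and 4.78 in mPGC-1α microglia. Its difference of 0.09 (SE 0.18, limma adjusted p 0.820) turned to -0.04 without PGC-1αf/f replicate 3 and was also below 0 under a median shift and under quantile normalization with or without normexp. A second Trem1 probe of the same transcript was not above background on any array (-4.26 to -6.34). Finally, Cebpe, the transcription factor that drives the switch to secondary granule genes, gave 0.12, 1.35 and -3.71 in PGC-1αf/f and 1.06, 1.90 and 1.47 in mPGC-1α microglia, and its difference of 2.22 became 0.74 (SE 0.39, limma adjusted p 0.488).

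Among the 23 genes above background on PGC-1αf/f replicate 3, those with a larger distance on that array also tended to have a larger distance between PGC-1αf/f replicates 1 and 2. Across these genes the distance of replicate 1 to replicate 2 and that of replicate 3 to the mPGC-1α mean had a Pearson r of 0.80 and a Spearman rho of 0.75. Signal level went along with the distance of replicate 1 to replicate 2 as well. Over the genes of the list, that distance and the mean mPGC-1α signal had a Spearman rho of 0.76. Genes with lower signal thus tended to have the larger distance between these replicates. The part of signal level in the relation between the distances was not tested. The genes share the same arrays and are not independent, so no p is given.

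**Figure D3:**
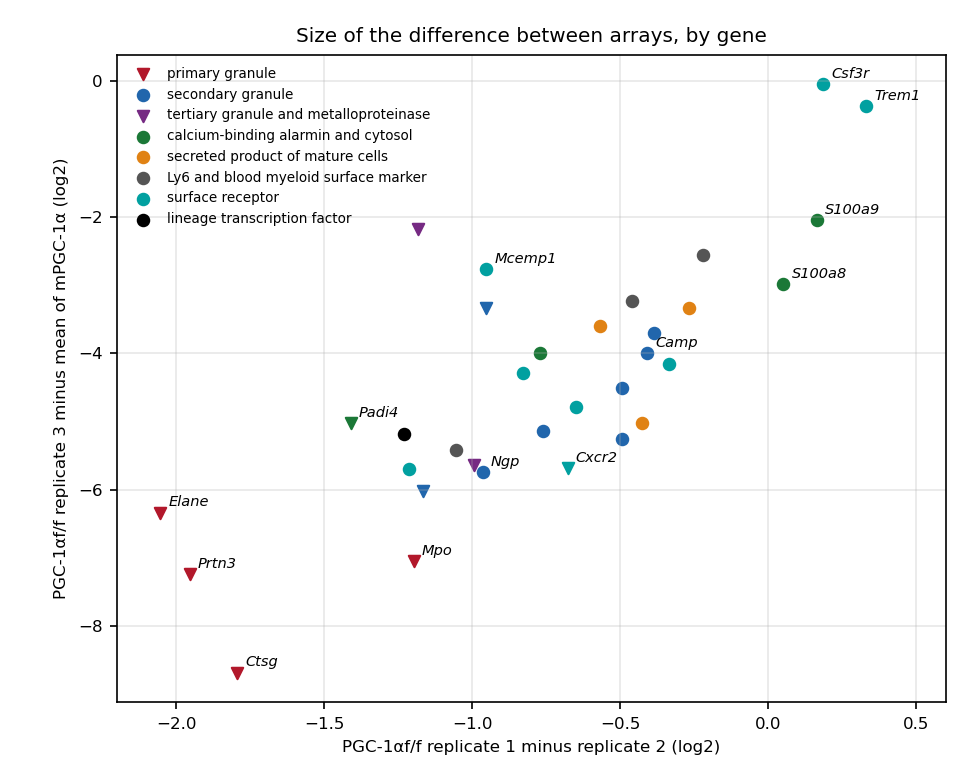
Each point is a gene with a value on all arrays, coloured by role. The horizontal axis gives the log2 difference of PGC-1αf/f replicate 1 minus replicate 2. The vertical axis gives that of PGC-1αf/f replicate 3 minus the mPGC-1α mean. Triangles were not above background on PGC-1αf/f replicate 3. Their vertical position uses the reading below background on that array, which is not a measured level, so it can overstate the distance. Primary granule genes lie at the lower left, S100a8 and S100a9 near the upper right, and Csf3r and Trem1 at 0 or slightly below on the vertical axis.

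Markers of the same and of other cell types were read on the same arrays. Of 49 further neutrophil genes named on the array, 45 had values on all arrays, and 41 of these had a higher mean in mPGC-1α microglia, with a median difference of 1.33, or 0.56 without PGC-1αf/f replicate 3. By limma 0 of 45 tested passed an adjusted p of 0.05, while 16 were higher (7.53% of all probes) and 0 lower at a p of 0.05 without adjustment. PGC-1αf/f replicate 3 was the lowest array for 35 of the 45. The brightest 4 of them were Selplg, Itgam, Alox5ap and Cyba, which microglia also express, and these differed by -0.07, -0.01, 0.25 and 0.01. Monocyte markers had a median difference of 0.85, and 0.36 without that array, which was the lowest for 16 of 22. Lymphocyte markers had 0.81 and 0.33, and it was the lowest for 18 of 20, of which 5 were not above background on any array and 13 were tested. Over all genes with values on every array, tested or not, it was the lowest for 55.9%. Erythroid markers went from 0.55 to -0.11, and it was the lowest for 7 of 7. Alpha-globin gene Hba-a1, for example, was at 4.26, 4.26 and 2.26 in PGC-1αf/f and 3.39, 3.50 and 4.21 in mPGC-1α microglia.

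Platelet genes did not share the pattern, with a median difference of 0.04 and PGC-1αf/f replicate 3 lowest for 3 of 8, but 4 of the 8 were not above background on any array. Border macrophage markers had a median difference of 0.38 and that array was lowest for 4 of 11. Microglial markers were above background on all arrays for 14 of 14 genes. Over the 8 with values on every array their median was 4.41, 4.26 and 4.25 in PGC-1αf/f and 4.08, 4.07 and 4.18 in mPGC-1α microglia, so PGC-1αf/f replicate 3 lay among the other arrays. P2ry12, the receptor used for enrichment, was at 4.13, 3.79 and 4.35 in PGC-1αf/f and 3.70, 3.68 and 3.89 in mPGC-1α microglia with outlier spots kept (difference -0.33, SE 0.18, limma adjusted p 0.369). The difference in P2ry12 was -0.20 without PGC-1αf/f replicate 3. Not every lymphocyte and monocyte marker was low on that array. Among the 4 brightest lymphocyte markers, Cd79b had its highest signal there (2.34), while Nkg7, Cd3d and Ptprcap had their lowest. Of the 4 brightest monocyte markers, Lyz1 (3.01) and S100a4 (1.30) had their lowest signal there, but Ms4a4c (5.43) and Gngt2 (2.95) did not. The part of the lymphocyte, monocyte and erythroid markers, most of which moved with the neutrophil genes there, was not tested.

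**Figure D4:**
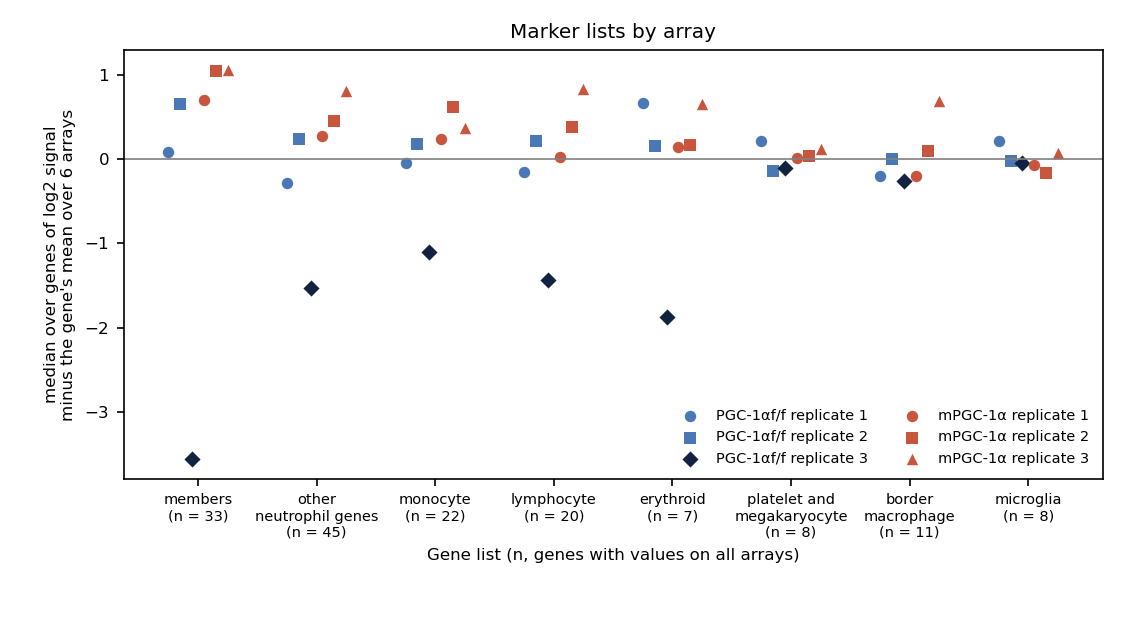
For each gene list (horizontal axis, n genes with values on all arrays), points give the median over genes of log2 signal minus the gene's mean over 6 arrays, by array (blue, PGC-1αf/f; red, mPGC-1α; dark diamonds, PGC-1αf/f replicate 3). The dark diamond lies at -3.56 for the 33 genes of the list and between -1.11 and -1.87 for other neutrophil, monocyte, lymphocyte and erythroid markers, and close to 0 for platelet, border macrophage and microglial markers.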

How the data were processed

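Gene expression was measured in sorted microglia on 6 single-colour Agilent mouse arrays (3 PGC-1αf/f, 3 mPGC-1α). The authors amplified the RNA and labelled cDNA made from it with Cy5. The deposited scanner files give an intensity per spot from Feature Extraction 11.5.1.1, per the file headers, after background subtraction and correction of spatial trends. A deposited summary table repeated these intensity values, to within 0.497%, unnormalized. GeneSpring is the normalization software in the methods, which give no test per gene.

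The deposited values were taken to log2 intensity, and the 75th percentile of the non-control spots of an array was subtracted. Spots flagged as outliers were left out and spots of a probe averaged. A probe was tested if at least 0.5 of its spots cleared background on every array of either genotype, which left 25333 of 56605, and 25257 gave a p. Probes were named by matching accessions to RefSeq (GRCm38.p6), where 33767 had 1 symbol, for 23462 genes. All 34 listed genes were found, and 7 had more than 1 probe. Fits used limma 3.58.1 (lmFit and eBayes, two-sided tests), R 4.3.3 and data.table (version 1.17.8), with Benjamini-Hochberg adjustment over all probes and a threshold of 0.05. The fit was tested on simulated data. Summaries and figures used Python 3.11.15, pandas 2.3.3, numpy 2.4.6 and matplotlib 3.10.9.

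The genes, role groups and marker lists were chosen with earlier results of these data known. All 34 genes were named, with values per array for those above background on all arrays or with the largest range. From each marker list, the 4 genes with the highest mean signal were eligible to be named. The groups compared share replicate numbers, but deviations of same-numbered arrays correlated at 0.14, 0.13 and 0.0187, so shared numbers were not treated as pairs. Replicates 1 and 2 of the groups also share slide columns, and the consensus correlation within slide column was 0.35. A fit with slide column as a random block placed 138 probes past the threshold, against 20 in the main fit, and 0 genes of the list. The number of arrays limits the precision.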

Additional observations from a re-analysis of the deposited data

How the results depend on the processing

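The alternatives were other scalings, background correction, filters, models and leaving out each array. Among 19 alternative fits, 17 gave 0 genes of the list past the threshold. The deposited table without normalization gave 24; its fit gave a single common standard error of 0.43 to 32 of 33 genes, and 456 probes (1.81%) passed. Array weights gave 1, Ly6g, which had a value on only 1 PGC-1αf/f array, while 13.8% of probes passed. Leaving out each array gave 0 to 0. The count of 9 genes with groups that did not overlap (12.4% of all genes tested) was 5 under quantile normalization (11.1%) and 3 in the deposited table (9.18%). Leaving out each array gave 9 to 30, with 30 without PGC-1αf/f replicate 2 and 22 without mPGC-1α replicate 1. Both include the untested Mmp25, and over tested genes they were 29 (17.2%) and 21 (17.6%). The median difference of 1.94 was 1.81 under a median shift, which moved the median of all probes to -0.14, 1.86 by quantile normalization, 1.64 with normexp, 1.54 with slide column as a random block, 0.47 with array weights, and 0.50 to 2.79 without single arrays. With outlier spots kept, a setting chosen after seeing the data, it was 1.91. With the replicate number as a block, 0 genes of the list passed and the median was 1.94, so no call in the list changed. Of all probes, 0 passed with this block, against 20 in the main fit. Of 617 single-gene values from tested alternatives, 586 kept direction and call. Trem1 reversed to -0.0403 under a median shift, -0.0069 by quantile normalization and -0.0085 with normexp, and ran from -0.0430 (without PGC-1αf/f replicate 3) to 0.2429 when leaving out each array. When leaving out each array, Csf3r ran from -0.0711 to 0.0441, above 0 without PGC-1αf/f replicate 1 (0.0441) and without mPGC-1α replicate 2 (0.0310). The causes were not tested. Genes below background on PGC-1αf/f replicate 3 have only bounds there.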

Other observations

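Beyond the comparisons above, Xist, the transcript of the inactive X chromosome, was well above background on PGC-1αf/f replicate 2 (-2.78), mPGC-1α replicate 2 (-2.40) and mPGC-1α replicate 3 (-1.63), although all samples are labelled male. Over the neutrophil and blood myeloid genes, the medians of these arrays were 2.51, 2.85 and 2.96, the highest of the 6. On PGC-1αf/f replicate 2 and mPGC-1α replicate 2, the Y-linked genes Ddx3y, Eif2s3y, Kdm5d and Uty were above background as well as Xist. Whether an array held RNA of both sexes was not tested, nor whether these facts are related.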
